A study of Mus musculus with 21 samples.

Results

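The regions described here are short stretches of H2Bub1 in mouse embryonic stem (ES) cells that were listed again in at least 1 other condition of the study. They were selected on measured values: an H2Bub1 domain of the ES list had to be at most 2000 bp long and to overlap, by at least 1 bp, a domain in any of the 4 other H2Bub1 lists. Of the 2937 ES domains, 376 met the length limit and 281 of these also met the overlap, and these 281 are the short recurrent domains. The other 95 short domains were listed in ES cells alone, and 2561 ES domains were longer. Domain length, score and recurrence come from the lists the rule read, so they are given as a description.

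H2Bub1 is histone H2B carrying a single ubiquitin. Rnf20 is the E3 ligase that places it, and the mark is best known as a broad cover over the bodies of transcribed genes, where it accompanies elongating RNA polymerase II. Fbxl19 is an F-box protein whose CXXC zinc finger binds unmethylated CpG, as found in CpG islands. The study's title links Fbxl19, Rnf20 and H2Bub1 at such islands. A domain far shorter than a gene is thus unlike the usual gene-body pattern of this mark, and the questions here are how strong such domains were, which of the 2 proteins lay in them, and whether other conditions listed a longer domain over the same place.

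All cells were mouse J1 ES cells, a pluripotent line, and chromatin was profiled by immunoprecipitation and sequencing. H2Bub1 was measured with an antibody in ES cells with Fbxl19 knocked down (2 samples), in a clone that overexpressed tagged Fbxl19 by more than 5-fold (OE-high, 3 samples), in knockdown cells differentiated for 4 days (2 samples), in cells differentiated for 4 days with no knockdown (2 samples), and in unmodified ES cells (3 samples). ES cells were grown with leukemia inhibitory factor, and the labels do not describe the knockdown or the differentiation. Streptavidin beads recovered flag-biotin tagged Fbxl19 from the OE-high clone (2 samples) and from a clone below the endogenous level (OE-low, 2 samples), and Rnf20 from 1 sample. OE-low and Rnf20 cells contained BirA, the ligase that attaches biotin, by their labels, which do not name it for OE-high. Rnf20 therefore rests on a single sample and Fbxl19 on 2 clones, and the Fbxl19 seen was the tagged protein. The 4 inputs had no list that was analysed here.

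The H2Bub1 lists are the authors' combined calls per condition, so each region has 1 value per condition, with no spread between replicates and no p-value. The track lines carry a number followed by M that the headers do not explain, 46 for the knockdown, 46 for OE-high, 41 for the differentiated knockdown, 36 for differentiated and 60 for ES cells. Covered length was 41.9 Mb, 246 Mb, 15.6 Mb, 156 Mb and 57.4 Mb in the same order of lists, so a match in the OE-high or differentiated list had more sequence to fall in. Scores are the authors' own, start just above 7 in every H2Bub1 list, and rank domains within a list only. Depth per sample is unknown. Intervals in brackets are exact Clopper-Pearson 95% intervals for counting error in the number of domains, and neighbouring domains are not independent. Positions are on mm9, counted from 1.

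The short recurrent domains were of 2 kinds. In 81 of them every overlapping domain in every other list was also at most 2000 bp long, and these are called always short below. The other 200 (71.2%, interval 65.5 to 76.4) lay under a domain over 2000 bp in at least 1 condition, against 90.2% of all ES domains. Of these 200, 18 had a short counterpart in some lists and a longer counterpart in others, and 182 had longer counterparts only. The kinds differed in Rnf20 content, which the rule did not use. An Rnf20 peak lay in 46 of the 81 always-short domains (56.8%, interval 45.3 to 67.8) and in 33 of the 200 with a longer counterpart (16.5%, interval 11.6 to 22.4), a difference of 40.3 percentage points (interval 27.4 to 52.3).

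Scores of the short recurrent domains covered nearly the whole range of the ES list. The median was 9.51 and the highest 221, with quartiles at 7.74 and 13.8. The median of all ES domains was 9.21, so the typical short recurrent domain was not stronger than the rest, whereas the upper tail was. Of the 10 highest-scoring ES domains 7 were short and recurrent, of the top 20 15 were, and of the top 100 38 were, although these domains make up 281 of 2937. The always-short kind filled most of that tail, with 19 of the top 50 ES domains against 9 for those with a longer counterpart. Always-short domains had a median score of 14.4 (interval of the median 12.6 to 19.7), with the median at percentile 88.0 of the ES list. Domains with a longer counterpart had a median of 8.59 (interval of the median 8.33 to 9.05), at percentile 39.8. Short domains listed in ES cells alone had a median of 8.33 and a highest score of 36.4.

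**Figure D1:**
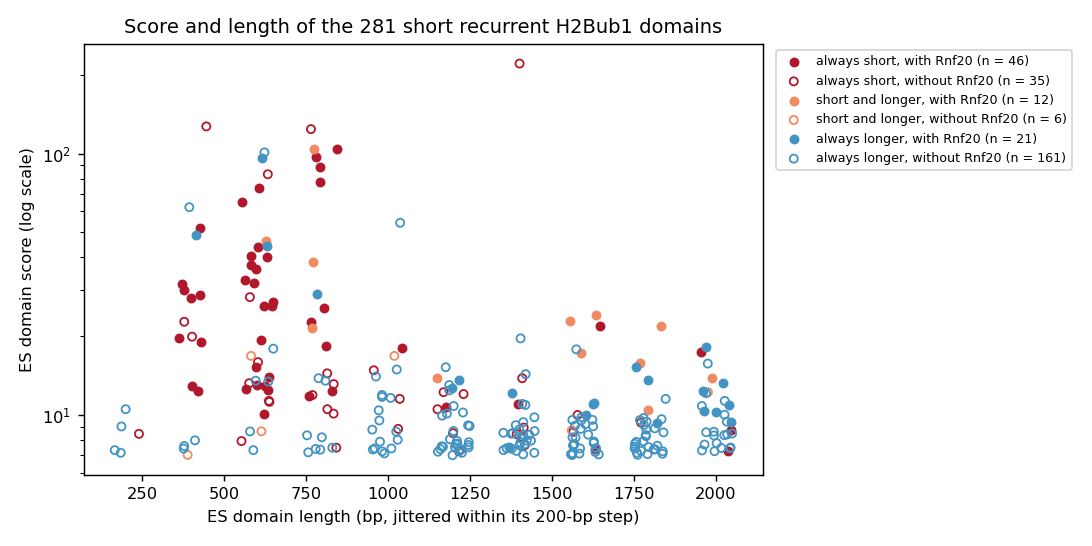
ES score (log scale) against ES domain length (bp) for each of the 281 short recurrent domains. Red points are always short, orange points have short and longer counterparts, blue points have longer counterparts only, and filled points hold an Rnf20 peak. Scores over 20 belong mostly to domains of 400 to 800 bp, many of them red and filled, while blue open points crowd near the lower limit of 7.

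Within the short recurrent domains, median scores were highest at 400 to 800 bp, although the single highest score, 221, was at 1400 bp. Median scores were 8.45 at 200 bp (5 domains), 21.3 at 400 bp, 18.7 at 600 bp and 13.6 at 800 bp, and lay between 8.36 and 9.97 from 1000 to 2000 bp. The 89 domains of at most 800 bp had a median score of 16.8, and the 192 of 1000 to 2000 bp had a median of 8.62. The same division showed in kind, since 33 of the 89 shorter domains (37.1%) but 167 of the 192 longer domains (87.0%) had a longer counterpart elsewhere. Domains of exactly 2000 bp recurred in 31 of 44 cases with a median score of 9.38 (7.25 to 18.1). Those of 2200 bp, just outside the rule, recurred more often, in 49 of 54 cases, with a median of 9.99 (7.27 to 130). Recurrence was 33 of 52 at 1800 bp and 52 of 61 at 2400 bp. All but 3 of the 31 and all but 1 of the 49 had a longer counterpart.

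Rnf20 stood out over Fbxl19 in the always-short domains. Of the 81, 41 (50.6%, interval 39.3 to 61.9) held Rnf20 without an OE-high Fbxl19 peak, 5 held both, 1 held Fbxl19 alone and 34 held neither. Over all ES domains, Rnf20 without OE-high Fbxl19 occurred in 8.48%, an Rnf20 peak in 38.8% and an OE-high Fbxl19 peak in 63.9%. In short domains listed in ES cells alone, Rnf20 without OE-high Fbxl19 occurred in 33.7% (interval 24.3 to 44.1). That interval overlaps the one of always-short domains. By number of domains, those with a longer counterpart had the reverse balance. Of the 200, 15 (7.50%, interval 4.26 to 12.1) held Rnf20 alone, 18 held both, 36 (18.0%) held Fbxl19 alone and 131 held neither. Per covered length the balance was even there, with Rnf20 midpoints and OE-high Fbxl19 summits at 130 per Mb each. Among all 281, 79 held Rnf20 (28.1%, interval 22.9 to 33.8), 60 held OE-high Fbxl19 (21.4%, interval 16.7 to 26.6) and 56 held Rnf20 alone (19.9%, interval 15.4 to 25.1), so 56 of the 249 ES domains with Rnf20 alone were short and recurrent. OE-low Fbxl19 peaks lay in 14 of the 281 (4.98%), against 14.3% of all ES domains. These shares are not corrected for length. Per covered length, OE-low summits numbered 34.7 per Mb in the 281 and 7.94 per Mb in all ES domains.

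Length sets how easily a domain meets a peak, so the share over all ES domains is not a like-for-like reference for domains of at most 2000 bp. Short domains listed in ES cells alone are closer in length, with a median of 1400 bp against 800 bp for always-short and 1200 bp for all 281. They held Rnf20 in 34 of 95 cases (35.8%, interval 26.2 to 46.3) and OE-high Fbxl19 in 5 (5.26%, interval 1.73 to 11.9). Counted per covered length, Rnf20 midpoints numbered 708 per Mb in always-short domains, 130 per Mb in those with a longer counterpart, 265 per Mb in short domains of ES cells alone and 35.0 per Mb in ES domains over 2000 bp. OE-high Fbxl19 summits numbered 86.7, 130, 31.2 and 42.7 per Mb in the same 4 classes. OE-low Fbxl19 summits numbered 72.3, 25.3, 7.80 and 7.78 per Mb. The first 2 of these values rest on 5 and 7 summits, and their order is opposite to that of OE-high. The Rnf20 contrast between the kinds was 43.6 percentage points (interval 20.9 to 61.3) among members of at most 800 bp. Among those of 1000 to 2000 bp it was 17.0 points, with an interval of -1.16 to 39.1 that includes 0, over 25 always-short domains.

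**Figure D2:**
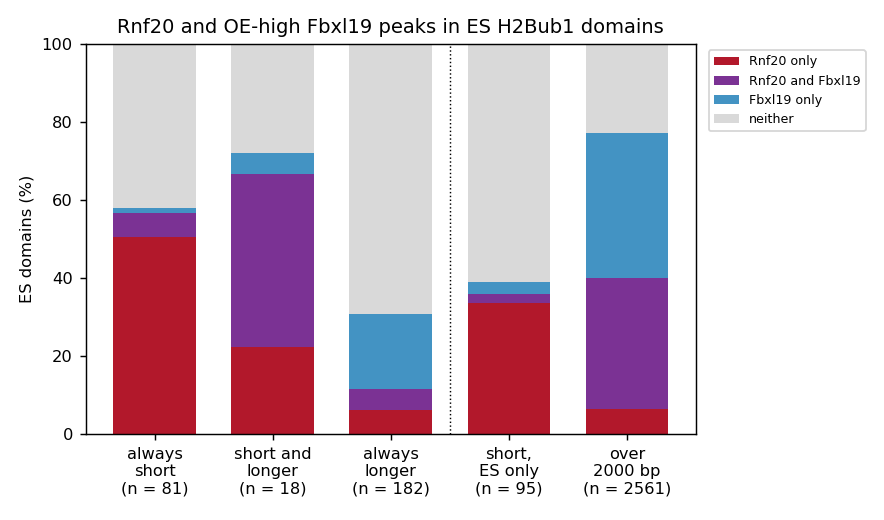
Share of ES H2Bub1 domains (%) with an Rnf20 peak only, with Rnf20 and OE-high Fbxl19 peaks, with an OE-high Fbxl19 peak only, or with neither. The 3 kinds of short recurrent domain stand left of the dotted line, and short ES-only domains and ES domains over 2000 bp stand right of it. Rnf20 alone makes up 50.6% of the always-short bar, 33.7% of the short ES-only bar and 6.29% of the bar for domains over 2000 bp. In that last bar Fbxl19 alone makes up 37.0%.

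Rnf20 was rare in the weakest short recurrent domains and common in those scoring over 20. Of the 152 short recurrent domains scoring up to 10, 7 held Rnf20 (4.61%, interval 1.87 to 9.26). The share was 43.5% (interval 32.8 to 54.7) of the 85 scoring over 10 to 20, 90.9% (interval 70.8 to 98.9) of the 22 scoring over 20 to 40, and 68.2% (interval 45.1 to 86.1) of the 22 scoring over 40. Fbxl19 showed no such order, with 16.4%, 34.1% and 27.3% in the first 3 classes and 0 of 22 in the last (interval 0 to 15.4). The 22 strongest domains included 7 with no peak of either protein.

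Rnf20 peaks in always-short domains tended to rank high in the Rnf20 list. The 49 Rnf20 peaks in these domains had a median score of 168 against 66.5 for the whole Rnf20 list, with the median at percentile 92.0 of that list, and 40 of them had their midpoint within 200 bp of the domain's centre. Rnf20 peaks in domains with a longer counterpart had a median score of 92.1, and 14 of 41 were that close to the centre. Domain length sets much of this distance, since always-short domains with Rnf20 had a median length of 600 bp and those with a longer counterpart and Rnf20 1600 bp. Of the 100 highest-scoring Rnf20 peaks, 10 lay in short recurrent domains, which held 90 of all 8606 Rnf20 peaks. ES domains over 2000 bp held 52 of the 100 and 2105 of all Rnf20 peaks. Median Rnf20 peak scores were 80.8 in those longer domains and 75.9 in short domains of ES cells alone. OE-high Fbxl19 summits in always-short domains, 6 in all, included 3 within 200 bp of the centre. The OE-high Fbxl19 peaks in all 281 domains had a median score of 11.4, close to the 10.7 of their whole list.

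The 281 domains differed in how often each condition listed them again. A counterpart was found for 110 in knockdown ES cells (39.1%), for 227 in OE-high (80.8%), for 57 in the differentiated knockdown (20.3%) and for 173 in differentiated cells (61.6%). Over all ES domains these shares were 52.2%, 89.5%, 28.0% and 74.9%, and any counterpart was found for 93.2%. Since the rule asks for a counterpart, nothing is read from these shares. In number of lists, 90 domains had a counterpart in 1 other list, 108 in 2, 71 in 3 and 12 in all 4.

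Counterparts were long in OE-high and differentiated cells and often short in the knockdowns. The median longest counterpart was 23000 bp in OE-high (184 of 227 over 2000 bp), 23400 bp in differentiated cells (150 of 173), 2300 bp in knockdown ES cells (57 of 110) and 800 bp in the differentiated knockdown (19 of 57), against a median of 1200 bp for the domains themselves in ES cells. The OE-high and differentiated lists also had the longer domains as a whole, with list medians of 21600 and 19800 bp against 7600 bp in ES cells. The commonest combination was a counterpart in OE-high and differentiated cells but in neither knockdown list, with 85 domains, of which 7 were always short and 6 held Rnf20. A counterpart in knockdown ES cells alone was found for 30 domains, of which 23 were always short and 21 held Rnf20. A counterpart in both knockdown lists and OE-high, but not in differentiated cells, was found for 9 domains, of which 8 were always short and all 9 held Rnf20.

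**Figure D3:**
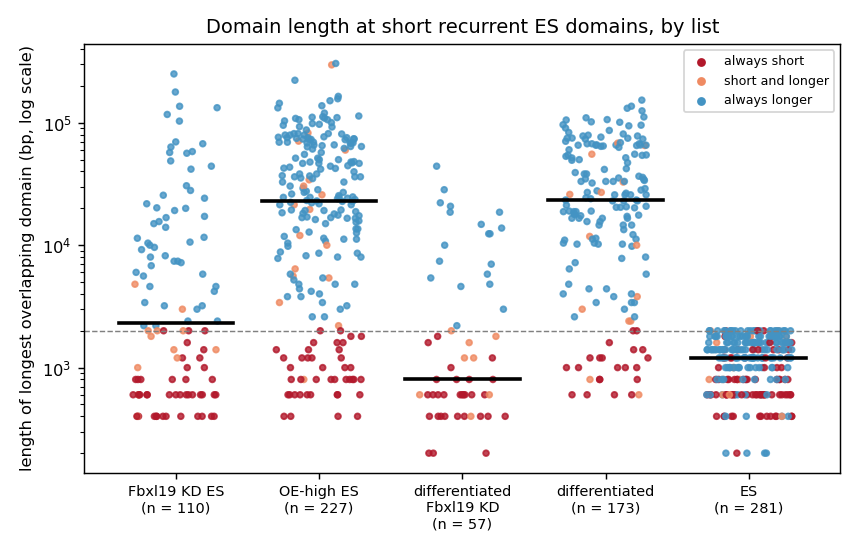
Length (bp, log scale) of the longest overlapping domain in each of the 4 other H2Bub1 lists, and of the domain itself in ES cells, for the 281 short recurrent domains. Each point is a domain coloured by kind, black bars are medians, and the dashed line is the 2000 bp limit. Points in the OE-high and differentiated columns lie mostly above the line, with medians of 23000 and 23400 bp, and those in the differentiated knockdown mostly below it.

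Where a list held a counterpart of an always-short domain, its borders were mostly close to those in ES cells. The limit of 2000 bp on both domains favours close borders, and 46 of the 81 had a counterpart in only 1 other list. In knockdown ES cells 43 of the 81 were listed, 26 with the same start and end and 40 with both ends within 200 bp, which is the step of the domain grid. In OE-high 42 were listed, 15 with the same ends and 31 within 200 bp. The differentiated knockdown listed 30, with 17 identical and 25 within 200 bp, and differentiated cells listed 21, with 6 identical and 16 within 200 bp. The median ratio of counterpart to ES length was 1.00 in all 4 lists. Counterparts ranked high in the knockdown lists, at a median percentile of 97.1 in knockdown ES cells and 96.9 in the differentiated knockdown, and lower in OE-high (45.4) and differentiated cells (67.5). Presence in knockdown ES cells went with Rnf20: 35 of 46 always-short domains with Rnf20 were listed there (76.1%, interval 61.2 to 87.4) and 8 of 35 without it (22.9%, interval 10.4 to 40.1). In OE-high these were 23 of 46 (50.0%) and 19 of 35 (54.3%), in the differentiated knockdown 18 of 46 (39.1%, interval 25.1 to 54.6) and 12 of 35 (34.3%, interval 19.1 to 52.2), and in differentiated cells 9 of 46 (19.6%, interval 9.36 to 33.9) and 12 of 35 (34.3%, interval 19.1 to 52.2). The rule asked for a counterpart, and 23 of the 81 had theirs in knockdown ES cells alone. Among domains with a longer counterpart, knockdown ES cells listed 14 of 33 with Rnf20 (42.4%, interval 25.5 to 60.8). Without Rnf20 they listed 53 of 167 (31.7%, interval 24.8 to 39.4), and these intervals overlap. Always-short domains with Rnf20 also scored higher in ES cells, with a median of 22.2 against 11.3 without it. These counts share the ES list and the kind was set by counterpart length, so the split is a description.

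The highest-scoring domain present in all 5 lists lay at chr16:57391200-57391999. It was listed with identical borders, 800 bp long, in all 5 lists, with scores of 96.8 in the knockdown, 69.0 in OE-high, 68.4 in the differentiated knockdown, 47.2 in differentiated cells and 104 in ES cells. In each list this put it at or above percentile 99.3. An Rnf20 peak scoring 1541, the 29th highest of 8606, spanned chr16:57391212-57391979 within it, and the nearest OE-high Fbxl19 peak was 214633 bp away. The nearest other ES domain was 265800 bp away.

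A region at chr3:5860200-5860999 was nearly as constant. It scored 82.7 in the knockdown (1000 bp long), 66.2 in OE-high (800 bp), 35.8 in the differentiated knockdown (1800 bp), 32.0 in differentiated cells (1400 bp) and 96.6 in ES cells (800 bp). Its Rnf20 peak at chr3:5860324-5860805 scored 1338 and ranked 46th, and no OE-high Fbxl19 peak lay within 283864 bp. At chr14:46703800-46704599 the borders were again the same in all 5 lists. Scores there were 40.6 in the knockdown, 44.3 in OE-high, 13.3 in the differentiated knockdown, 28.6 in differentiated cells and 77.6 in ES cells, with 2 weak Rnf20 peaks of 61.0 and 50.6. The region at chr11:108872800-108873599 was not listed in differentiated cells. It scored 92.2 in the knockdown, 50.3 in OE-high, 57.2 in the differentiated knockdown and 89.0 in ES cells, over an Rnf20 peak of 521.

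At the weak end, the always-short region at chr2:41842200-41843599 was in all 5 lists, with the nearest Rnf20 peak 1075418 bp away. It scored 9.48 in the knockdown, 7.13 in OE-high, 7.11 in the differentiated knockdown, 7.01 in differentiated cells and 8.93 in ES cells. These values stood at percentile 62.1 of the knockdown list and 45.7 of the ES list, but at or below percentile 4.86 of the other lists.

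A few of the strongest always-short regions held no Rnf20 and no Fbxl19 peak. The highest, at chr2:98506200-98507599, scored 177 in the differentiated knockdown, 191 in differentiated cells and 221 in ES cells, and had no counterpart in the knockdown or OE-high list. Next came chr12:3109800-3110199, with 113 in the differentiated knockdown, 82.8 in differentiated cells and 127 in ES cells. The region at chr9:35112600-35113399 scored 102 in the differentiated knockdown, 114 in differentiated cells and 124 in ES cells. At chr6:103598800-103599399 the scores were 70.6 in the differentiated knockdown, 45.8 in differentiated cells and 83.3 in ES cells. All 4 shared the same pattern, with each border within 400 bp of its ES position in both differentiated lists, and no entry in the knockdown and OE-high lists made from undifferentiated cells. Only 5 of the 281 domains had that combination of lists, and the fifth, at chr4:135699600-135701599, scored 13.8 and held Rnf20 and Fbxl19. The region at chr4 was picked for description after its values were seen. Repeat content, mappability and input signal at these positions were not analysed here, and whether any of these regions is an artifact was not tested.

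Domains with a longer counterpart mostly lay inside it as small pieces. Their longest counterpart had a median length of 33000 bp (quartiles 15450 and 73600, longest 305200), and the ES domain made up a median of 3.60% of it. It came from OE-high in 129 cases, from differentiated cells in 51, from knockdown ES cells in 20 and never from the differentiated knockdown. Of the 200, 183 lay wholly inside it. In 117 cases the longest counterpart also held at least 1 further ES domain, up to 6, and in 115 it held an ES domain over 2000 bp. In the other 83 the short domain was the only ES domain inside it. ES domains together covered a median of 22.7% of the longest counterpart. The 200 domains fell in 190 different longest counterparts.

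Crowding in the ES list itself followed the same division. Another ES domain lay within 10 kb of 105 of the 200 domains with a longer counterpart (52.5%, interval 45.3 to 59.6), but of only 3 of the 81 always-short domains (3.70%, interval 0.770 to 10.4), and of 108 of all 281 (38.4%, interval 32.7 to 44.4). The median gap to the nearest other ES domain was 302000 bp for always-short domains and 4500 bp for those with a longer counterpart. ES domains over 2000 bp had a median gap of 106000 bp. Short domains listed in ES cells alone were isolated too, with a median gap of 644000 bp. Another ES domain lay within 10 kb of 8.42% of them (interval 3.71 to 15.9), and of 18.3% of all ES domains. OE-high Fbxl19 peaks lay at a median gap of 214633 bp from always-short domains and 7958 bp from those with a longer counterpart. From short domains of ES cells alone that gap was 353309 bp.

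**Figure D4:**
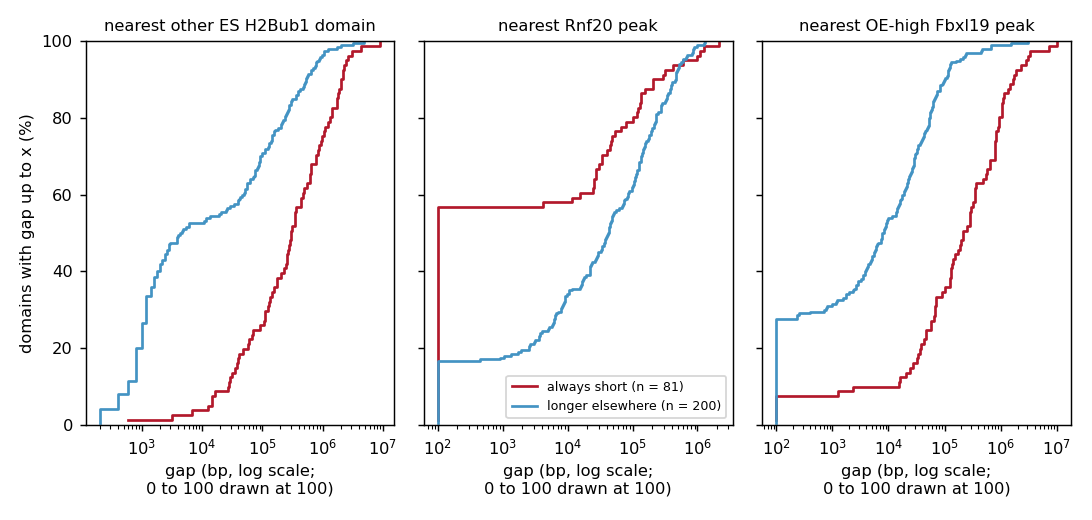
Cumulative share of domains (%) by gap (bp, log scale) to the nearest other ES H2Bub1 domain, Rnf20 peak or OE-high Fbxl19 peak, for always-short domains (red) and domains with a longer counterpart (blue). Always-short domains stand farther from other ES domains (median 302000 bp against 4500 bp) and from Fbxl19 peaks, while 56.8% of them overlap an Rnf20 peak.

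Among domains with a longer counterpart, both proteins were more frequent in those near an end of that counterpart. Only peaks inside the short domains were counted, not peaks elsewhere along the counterparts. A short domain reaching past an end counted as near it, and 19 of the longest counterparts were at most 5 kb long. Of the 200, 80 lay within 1 kb of an end of their longest counterpart. In these 80, OE-high Fbxl19 was present in 43 (53.8%, interval 42.2 to 65.0) and Rnf20 in 27 (33.8%, interval 23.6 to 45.2). In the 120 farther inside, OE-high Fbxl19 was present in 11 (9.17%, interval 4.67 to 15.8) and Rnf20 in 6 (5.00%, interval 1.86 to 10.6). An OE-high Fbxl19 summit lay inside 35 of the 200, and in 27 of these it was within 1 kb of an end of the longest counterpart.

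Single regions show the forms this took. At chr4:34790000-34791799, a region of 1800 bp scoring 8.78 in ES cells lay under domains of 44200 bp in both knockdown lists, 81600 bp in OE-high and 78000 bp in differentiated cells, with neither protein in it. At chr11:109234400-109235799, 1400 bp long with a score of 8.53 in ES cells, the counterparts were 19200 bp long in the knockdown, then 38200 bp in OE-high, 18600 bp in the differentiated knockdown and 39200 bp in differentiated cells. At chr11:94494800-94496599 (1800 bp, score 8.56 in ES cells) they were 10400, 28400, 4800 and 28200 bp long in the same order of lists. At chr14:75690000-75691599 (1600 bp, score 9.03 in ES cells) they were 6800, 76200, 7400 and 54200 bp long in that order. All 4 scored below the ES list median of 9.21 and held no peak of either protein.

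The highest-scoring domains with a longer counterpart were of another form, a short and high-ranking stretch in ES cells. In 4 of the 5 highest, the longest counterpart ranked lower in its own list than the short domain did in the ES list. At chr16:11143800-11144599 the domain was 34200 bp long with a score of 14.0 in OE-high, 600 bp with 83.1 in the differentiated knockdown, 600 bp with 47.9 in differentiated cells and 800 bp with 104 in ES cells, over an Rnf20 peak of 1895. The region at chr5:147072400-147072999 lay over an Rnf20 peak of 1124 and within domains of 73200 bp scoring 14.6 in OE-high and 76400 bp scoring 11.3 in differentiated cells, against 600 bp and 95.8 in ES cells. At chr4:70039000-70039399, with no peak of either protein, domains of 38200 bp scored 11.8 in OE-high and 8.63 in differentiated cells, against 400 bp and 62.3 in ES cells. The region at chr5:37051800-37052799 began a domain of 35400 bp that scored 14.7 in OE-high and 14.5 in differentiated cells, and was 1000 bp long with a score of 54.3 in ES cells. The exception was chr2:98505000-98505599. There, close to the strongest always-short region, a domain of 3400 bp scored 112 in differentiated cells (percentile 99.9), against 600 bp and 101 in ES cells (percentile 99.7).

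The 18 domains with short and longer counterparts had a median score of 16.8 in ES cells. Of these, 12 held Rnf20 (66.7%, interval 41.0 to 86.7), 9 held OE-high Fbxl19 (50.0%, interval 26.0 to 74.0) and 8 held both (44.4%, interval 21.5 to 69.2). Over all ES domains the shares were 38.8%, 63.9% and 30.3%, not matched for length. The intervals for OE-high Fbxl19 and for both proteins include those shares. The region at chr3:123209800-123211399 held 3 Rnf20 peaks, 2 OE-high Fbxl19 peaks and an OE-low peak. Its length was 1600 bp in the differentiated knockdown and in ES cells, 3000 bp in the knockdown and in differentiated cells, and 5400 bp in OE-high. It scored 14.3 in the knockdown, 9.76 in OE-high, 9.87 in the differentiated knockdown, 12.8 in differentiated cells and 24.0 in ES cells. At chr9:88416200-88417799, with 3 Rnf20 peaks and an OE-high Fbxl19 peak, the knockdown list had the shortest form (1400 bp) and OE-high the longest (3400 bp), with 2000 bp in the differentiated knockdown, 2400 bp in differentiated cells and 1600 bp in ES cells. Its score stood at percentile 24.9 of the differentiated knockdown list (7.61) and at percentile 96.6 of the ES list (22.9). No other short recurrent domain met 3 or more peaks of Rnf20 or of OE-high Fbxl19.

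Short domains of the other H2Bub1 lists also had Rnf20 without Fbxl19 more often than longer domains of the same list. Among domains of at most 2000 bp that share was 23.5% of 196 in the knockdown, 14.3% of 231 in OE-high, 23.7% of 97 in the differentiated knockdown, 11.6% of 95 in differentiated cells and 23.4% of 376 in ES cells. Among longer domains it was 4.89%, 4.58%, 4.03%, 3.66% and 6.29% in the same order. Length was not matched here. A longer domain meets an Fbxl19 peak more easily, which can lower its share with Rnf20 alone. As a share of domains, Rnf20 itself was not more frequent in short domains. It lay in 30.1% of short and 42.8% of longer domains in the knockdown, 19.0% and 32.1% in OE-high, 39.2% and 40.2% in the differentiated knockdown, and 30.1% and 40.1% in ES cells. In differentiated cells it lay in 19 of 95 short domains and 32.3% of longer domains. OE-high Fbxl19 differed more, for example 11.7% of short and 74.3% of longer domains in the knockdown and 17.3% and 70.8% in ES cells. These shares are not corrected for length. Per covered length in the ES list, OE-high Fbxl19 summits numbered 122 per Mb in the 281 short recurrent domains. They numbered 31.2 per Mb in short domains of ES cells alone and 42.7 per Mb in domains over 2000 bp. Rnf20 midpoints numbered 246, 265 and 35.0 per Mb in the same order of classes, so per covered length Rnf20 was denser in the short domains. These lists rest on separate H2Bub1 samples but on the same single Rnf20 sample, and part of their short domains are the counterparts described above.

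The domains were unevenly spread over chromosomes. Chromosome 11 held 48 of the 281, chromosomes 1 and 9 held 32 each, chromosome 4 held 25 and chromosome 17 held 24, whereas chromosomes 7 and 19 held 3 and 1. Over all chromosomes 9.57% of ES domains were short and recurrent. Chromosomes 1 (9.17% of 349 ES domains) and 4 (9.65% of 259) were close to that share. The share was 15.6% on chromosome 9, 14.2% on chromosome 3, 14.0% on chromosome 17, 11.8% on chromosome 11 and 2.56% on chromosome 7. On chromosome 11, 44 of 48 had a longer counterpart, and on chromosome 3, 6 of 16 did. Without chromosomes 1, 4, 9, 11 and 17, a set picked after these counts were seen, 55.0% of 120 domains had a longer counterpart and the Rnf20 contrast between the kinds was 24.9 percentage points (interval 6.10 to 42.1).

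**Figure D5:**
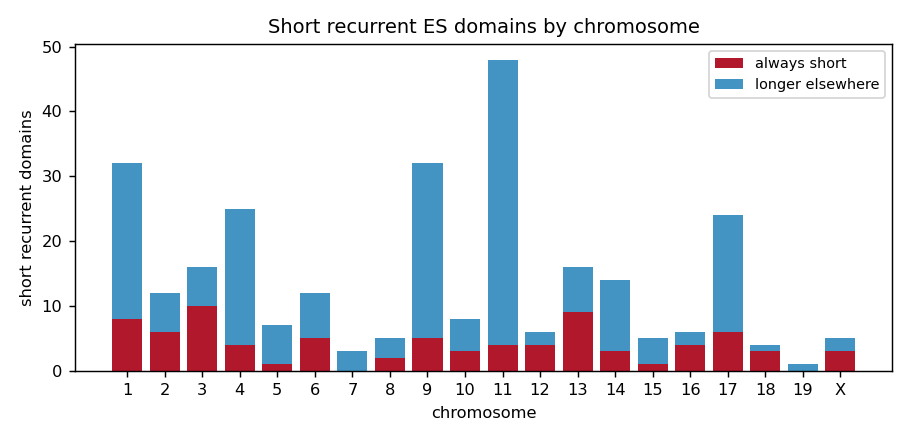
Number of short recurrent ES domains on each chromosome, always-short domains in red and domains with a longer counterpart stacked in blue. Chromosomes 1, 4, 9, 11 and 17 hold most of the blue, with 44 of the 48 domains on chromosome 11.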

How the data were processed

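Chromatin was profiled by ChIP-seq. BWA 0.5.9-r16, MACS and the build mm9 appear in the submitters' processing notes without a stated role. Each of the 5 H2Bub1 tracks is named as combined and as BCP, per the file headers. The authors' deposited score per domain or peak has no formula in the sources used here, and domain length is a further deposited column in bp. Domains move in steps of 200 bp. The Rnf20 list comes from 1 library. Fbxl19 lists were read as counted from 1 and the others from 0. Replicates were combined by the authors, so depth per sample is unknown and no test was run.

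Overlap meant 1 bp or more, with the longest counterpart used per list. Shares carry exact Clopper-Pearson 95% intervals, and the interval of a difference adds both in squares. Members and classes were chosen with earlier results of these data known. Named regions were the highest-scoring members overall (10) and per kind (5), the 10 top members in all 5 lists, and those with 3 or more peaks, and others are said to be picked later. Without a sequence or annotation on mm9, no gene is named. Overlaps were tested on simulated data. Calculations used Python 3.11.15, NumPy 2.4.6, pandas 2.3.3, SciPy 1.17.1 and matplotlib 3.10.9.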

Additional observations from a re-analysis of the deposited data

How the results depend on the processing

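No paired analysis was possible because each condition has 1 combined list. Over 20 alternative settings, 53 of 81 values stayed within the interval of the reported value, or within 1.5 times the count of domains, and 28 did not. The Rnf20 contrast between always-short domains and those with a longer counterpart, the one value that could change sign, ran from 17.0 to 49.3 percentage points over 17 settings. It was 17.0 in members of 1000 to 2000 bp and 24.9 without chromosomes 1, 4, 9, 11 and 17. With a length limit of 1000 bp there were 111 members, with a median score of 13.8, a longer counterpart in 45.9%, Rnf20 in 42.3%, Rnf20 without Fbxl19 in 36.9%, OE-high Fbxl19 in 10.8% and another ES domain within 10 kb in 24.3%. With 3000 bp, used for the counterparts too, there were 529, with a longer counterpart in 79.6%, Rnf20 without Fbxl19 in 14.6%, OE-high Fbxl19 in 33.6% and a near ES domain in 32.7%. Asking for counterparts in 2 lists gave 81.7%, 15.2% and 48.7% for a longer counterpart, Rnf20 without Fbxl19 and a near ES domain, and 21.5% for Rnf20. The share with a longer counterpart was 76.5% without the knockdown list, 64.8% if longer meant over 3 times the ES domain, 64.4% if it meant over 5 kb, and 55.0% without the 5 chromosomes. OE-low peaks gave 4.98% for Fbxl19 and 25.6% for Rnf20 without Fbxl19. OE-high Fbxl19 was at 15.3% with peak lists of the same size and 12.8% with the top 50% of each. At the same size the Rnf20 list, being the shorter, stayed whole. The Rnf20 share and the Rnf20 contrast could not change in that setting, and both count among the 53. A near ES domain was at 30.2% within 2 kb and 48.8% within 50 kb. Settings that left out a list of knockdown or differentiated cells, the 5 chromosomes, or members by length were chosen after seeing the data. The cause of these shifts was not tested, beyond the length limits changing which domains are counted.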
